A study of Mus musculus with 2 samples.

Results

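The nuclear genes of oxidative phosphorylation were followed in young mouse embryonic fibroblasts (MEFs) after knockdown of the long noncoding RNA AK156230. Members were chosen by symbol alone: a probe set had to name exactly 1 mouse gene whose symbol starts with Nduf, Uqcr, Cox4, Cox5, Cox6, Cox7, Cox8 or Atp5, or is Sdha, Sdhb, Sdhc, Sdhd or Cyc1. This gave 91 of the 18193 named genes, read by 180 of 45037 probe sets. The MEFs were primary cells of the C57BL/6 strain, prepared from whole embryos at 13.5 days, and were at passage 2. They were transfected with GapmeR Control, a scrambled locked nucleic acid oligonucleotide, or with GapmeR AK156230, an oligonucleotide through which RNase H cuts the lncRNA, so both groups went through transfection and neither was untreated. Each group had 1 array of total RNA, and the AK156230 group rests on a single GapmeR. No difference given here therefore has a replicate check or a p-value, and "higher" and "lower" compare these 2 arrays.

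The values are MAS5 signals, which summarise the probes of a probe set on a linear scale and were scaled per array by the authors. Where several probe sets read a gene, the one whose log2 signal averaged highest over both arrays stands for it, and every ratio divides the AK156230 array by the control array. Pairs of signals are given with GapmeR Control first. The arrays had median signals of 54.8 and 50.95, and 75th percentiles of 167 and 161. On the brighter of its arrays, 81 of the 91 members reached the 75th percentile and 6 more reached the median. The remaining 4 (Ndufb4, Cox7a1, Cox7b2 and Cox8b) lay below the median on both arrays, where a signal may be background. The fibroblast label was checked on 15 markers. All 15 reached the 75th percentile. At 2-fold 6 of them were lower after the knockdown and 0 were higher, beside 5.64% and 1.98% of all genes that reached this percentile. Among the 6 were Pdgfra (1039 and 283), Col5a1 (2867 and 832), Ddr2 (1347 and 447) and Col3a1 (4712 and 1599). Postn (3625 and 3159), Vim (6598 and 6212) and S100a4 (3986 and 3926) were lower by less than 1.15-fold. Dcn (2309 and 2407) and Twist1 (602 and 734) were the 2 markers with a higher signal. In RNA of a whole culture, fewer cells of a type and less RNA per cell cannot be told apart.

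Oxidative phosphorylation takes place at the inner mitochondrial membrane. Complex I oxidises NADH and complex II succinate, complex III passes the electrons on to cytochrome c, and complex IV hands them to oxygen. Complexes I, III and IV pump protons while they do so, and complex V, the ATP synthase, uses the returning protons to make ATP. Most subunits are encoded in the nucleus and imported, while a core set is encoded by mitochondrial DNA. Fibroblasts in culture carry the common subunit isoforms, and several subunits of complex IV also have isoforms known mainly from muscle, testis, lung or hypoxic cells.

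No member was higher or lower by 2-fold or more. Over all named genes 1.59% were higher and 3.85% were lower at that threshold. Among the 7628 genes that reached the 75th percentile, a class that holds most of the members, the shares were 1.98% and 5.64%. At 1.5-fold, 2 members were higher (Cox7a1 and Cox6b2) and 2 were lower (Ndufa7 and Ndufv3), which is 2.20% of the members in each direction. The matching shares were 5.48% higher and 9.69% lower over all genes, and 6.65% and 11.4% among genes that reached the 75th percentile. Most members are short, and among the genes at that percentile that span under 40 kb the shares were 7.82% and 6.58%. The members also lay close together. Their log2 ratios had an interquartile range of 0.24, from -0.07 to 0.18. The range was 0.47 over all genes, 0.52 over the genes that reached the 75th percentile, and 0.46 over those of them under 40 kb. Of the members, 70 of 91 (76.9%) had a log2 ratio within 0.25 of 0, compared with 51.2% of all genes.

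**Figure D1:**
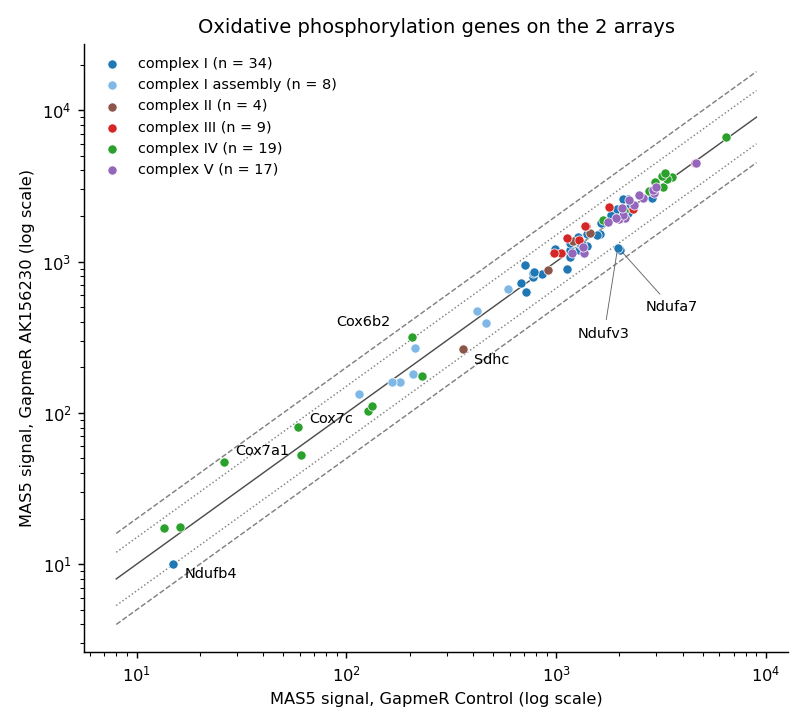
MAS5 signal of each of the 91 genes with GapmeR Control (x axis, log scale) and GapmeR AK156230 (y axis, log scale), 1 point per gene, coloured by complex. The solid line marks equal signals, dotted lines 1.5-fold and dashed lines 2-fold; all points lie inside the dashed lines, with Ndufa7 and Ndufv3 below the lower dotted line.

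The median log2 ratio of the members was 0.04, and 55 of 91 were above 0. The median of all named genes was -0.07 and 41.2% of them were above 0, so the members sat slightly higher than the array as a whole. Scaling the arrays to the same median moved every log2 ratio up by 0.105. Quantile normalization and a loess correction also moved every member up, by at most 0.11, so no scaling could turn a member above 0. Of the 36 members below 0, 16 were above it under at least 1 of these scalings, and their side of 0 is unsettled. These genes are short. The median genomic length of the members was 7.28 kb and 87 of 91 were under 40 kb, against a median of 20.3 kb for all genes. Among genes that reached the 75th percentile, those under 40 kb had a median log2 ratio of 0.03 and the longer ones -0.16. The part of gene length in the members' ratios was not tested.

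The complexes were set side by side by their medians, which were 0.04 for the 34 subunits of complex I, 0.07 for its 8 assembly factors, 0.03 for complex II, 0.22 for complex III, 0.07 for complex IV and 0.01 for complex V. Complex III stood highest and complex V was the tightest, with an interquartile range of 0.095. Differences between complexes were not tested, and the range of complex III (-0.06 to 0.36) lay inside that of complex I (-0.76 to 0.41).

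**Figure D2:**
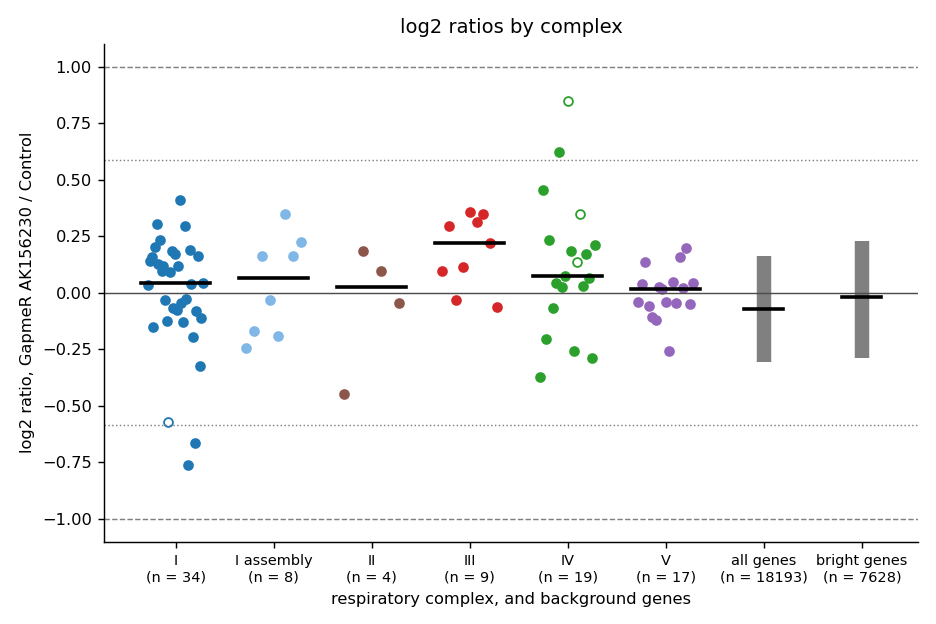
Log2 ratio, AK156230 array over control array, of each gene by complex (open points lie below the median signal on both arrays), with a black bar at each median. Grey bars give the interquartile range of all genes and of bright genes (those that reached the 75th percentile), dotted lines 1.5-fold and dashed lines 2-fold; the complex III median is 0.22 and that of all genes -0.07.

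Complex I carries flavin mononucleotide and a chain of iron-sulfur clusters on its core subunits, which are conserved from bacteria. Of the 6 nuclear core subunits measured, 5 had log2 ratios above 0. Ndufs7, which holds the last cluster before ubiquinone, had signals of 710 and 945, 1.33-fold higher, the highest ratio among the subunits of the complex. Its second probe set read 699 and 940. Ndufs3, a subunit of the arm that projects into the matrix, had signals of 1264 and 1456. Ndufs1, the large subunit with several clusters, had 677 and 724, and the NADH-binding flavoprotein Ndufv1 had 778 and 845. Ndufs8, a ferredoxin-like subunit, differed little, at 1166 and 1194. Ndufv2, which also binds a cluster, was the core subunit below 0, with 1281 and 1184. The core subunits as a group thus ranged in log2 ratio from -0.11 to 0.41, with a median of 0.11.

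The accessory subunits of complex I surround the core and are needed for its assembly and stability. They split evenly, 14 above 0 and 14 below, with a median log2 ratio of 0.01. At the upper end stood Ndufc2, of the membrane arm, with signals of 2088 and 2576, 1.23-fold higher, and Ndufb2, with 987 and 1211. Ndufab1 is also the acyl carrier protein of mitochondrial fatty acid synthesis. It was 1.18-fold higher (2198 and 2584). The X-linked subunit gene Ndufa1 had 2864 and 2622. In the middle lay subunits such as Ndufa5 (771 and 795) and Ndufa6 (1322 and 1298).

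At the lower end were the bright subunits Ndufa7 and Ndufv3, set apart from the rest of the complex. Ndufa7 lies on chromosome 17 of GRCm38.p6 from 33824572 to 33838316, where signals of 2022 and 1191.5 made it 1.70-fold lower. The gene is read by 5 probe sets, all of them above the 75th percentile. Their log2 ratios lay between -0.90 and -0.75, so each was lower by more than 1.5-fold. Ndufv3, an accessory subunit next to the flavin site of the NADH-binding module, lies on the same chromosome from 31520115 to 31531326. With signals of 1964 and 1238 it was 1.59-fold lower, and it has only 1 probe set. Among members that reached the median signal, Ndufs4 was next in complex I, at 1.25-fold lower (1121 and 895). Loss of this subunit is a known cause of Leigh syndrome in humans. Its other probe set above the 75th percentile had a log2 ratio of -0.52, and the gene spans 100.3 kb. Ndufb1 followed with 716 and 626.

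Ndufa7 and Ndufv3 are 2.29 Mb apart, and the genes beside them gave mixed values. Distances to these genes are between annotated coordinates, without regard to strand. Rps28, a ribosomal protein gene annotated from 33823036 to 33824562, lies 10 bases from Ndufa7 and had signals of 6778 and 6770. Its span covers part of the sequence before the start of Ndufa7. Kank3, 1.65 kb from Ndufa7 on the same side, was higher, with 28.7 and 114, a log2 ratio of 1.99 that starts from below the array median. On the other side of Ndufa7, Cd320, the receptor for cobalamin uptake, had 152 and 214, and Kifc1, 37.3 kb away, had 175 and 328, a log2 ratio of 0.90. Wdr4, 130 bases from Ndufv3, had 179 and 193, and Pknox1, 33.4 kb from Ndufv3 on the other side, had 330 and 259. The 342 genes of chromosome 17 that reached the 75th percentile had a median log2 ratio of 0.00. Of the 6 members on that chromosome 5 were below 0, namely Ndufa7, Ndufv3, Ndufaf7, Ndufv2 and Ndufb10, while Cox7a2l was above it.

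The 8 assembly factors of complex I share the Nduf symbol but are not part of the finished enzyme. Of these, 4 were above 0 and 4 below. Ndufaf1, which helps to build the membrane arm, had signals of 211 and 269, 1.27-fold higher, and Ndufaf5, which modifies Ndufs7, had 114 and 134. Ndufaf8 had 465 and 392 and Ndufaf6 had 207 and 181. Their signals lay between 114 and 660, and the log2 ratios spanned -0.25 to 0.35.

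Complex II is the succinate dehydrogenase of the citric acid cycle, and all 4 of its subunits were measured. The flavoprotein Sdha had signals of 915 and 886, and the iron-sulfur subunit Sdhb 1451 and 1551. The membrane anchors went in opposite directions. Sdhc was 1.36-fold lower, with signals of 360 and 264, while Sdhd was 1.14-fold higher, with 1205 and 1369. The second probe set of Sdhc read 278 and 230, a log2 ratio of -0.27, and that of Sdhd had 0.19. None of the 4 reached 1.5-fold.

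Complex III, the cytochrome bc1 complex, was the group with the highest median. Of its 9 nuclear subunits 7 were above 0. Uqcrh, the acidic hinge protein that contacts cytochrome c1, had signals of 1779 and 2278, 1.28-fold higher. Cyc1, cytochrome c1 itself, had 1128 and 1437, 1.27-fold higher. Uqcrfs1, the Rieske iron-sulfur protein, had 1378 and 1714, 1.24-fold higher. These subunits carry or adjoin the path of electrons to cytochrome c. The core protein Uqcrc1 had 1389 and 1706, and its partner Uqcrc2 had 1059 and 1134. The small subunits Uqcr11 and Uqcr10 read 975 and 1136, and 1281 and 1387. Uqcrb (4593 and 4488) and Uqcrq (2311 and 2214), which bind near the ubiquinone pocket and cytochrome b, were slightly below 0, and their sign changed under at least 1 scaling. No subunit of complex III reached 1.5-fold. Uqcrc2 and Uqcrh have a second bright probe set, with log2 ratios of 0.24 and 0.21, and the dimmest probe set of Uqcr10 (145 and 267) gave 0.88, well above its brighter ones (0.11 and 0.15). Cycs, the mobile carrier that takes the electrons onward, had signals of 1668 and 2055, 1.23-fold higher.

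Complex IV, cytochrome c oxidase, was read by 11 genes of common subunits and 8 of tissue-specific isoforms. Ndufa4 and its paralog Ndufa4l2 were placed here, because the Ndufa4 protein is a subunit of complex IV despite its symbol. Of the common subunits 10 of 11 were above 0, with a median log2 ratio of 0.07 and a range of -0.07 to 0.46. Cox4i1, the largest nuclear subunit, had signals of 3284 and 3860, 1.18-fold higher, and Cox7a2 had 3186 and 3688, 1.16-fold higher. Cox5a had 2962 and 3336, and Cox7a2l, which joins complex III to complex IV in supercomplexes, had 1665 and 1892. Subunits such as Cox6a1 (6466 and 6667), Cox6b1 (3367 and 3526), Cox5b (3557 and 3634), Cox8a (2111 and 2147) and Ndufa4 (2777 and 2924) differed by less than 1.06-fold. Cox6c was the common subunit below 0, with 3244 and 3100.01. Cox7c, at 58.9 and 80.8, had the highest ratio of the common subunits, 1.37, from a probe set close to the array median. Its second probe set (13.8 and 26.3) lay below the median on both arrays. All other common subunits were at least as bright as Cox7a2l, so the Cox7c value, which sets the upper end of the range, may be a poor guide to the gene.

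The tissue-specific isoforms of complex IV held both members that were higher by 1.5-fold or more. Cox7a1, the isoform of heart, skeletal muscle and brown fat, had signals of 26.1 and 47.1, 1.80-fold higher, but it lay under the array median on both arrays. With the 25th percentile of all signals added to each signal its log2 ratio was 0.50. Cox6b2, known from testis, had 206 and 318, 1.54-fold higher. Of the other 6 isoforms, 4 were lower. Cox8c, also of testis, had 228 and 176, and Cox6a2, the striated muscle isoform, had 133 and 111. Cox4i2, of lung and of cells in low oxygen, had 60.9 and 52.9, and the hypoxia-induced Ndufa4l2 had 126 and 103. Cox8b (16.0 and 17.6) and Cox7b2 (13.6 and 17.3) were above 0 but below the array median on both arrays. Beside Cox7a1, the 25 markers of skeletal and cardiac muscle had summed signals of 1692 and 2214. Acta1 (417 and 770.32) and Tnnt2 (59.7 and 250.21) were bright markers that rose. Without them, a choice made after their values were seen, the other 23 summed to 1215 and 1194. Markers that fell, such as Des (379 and 309), stayed in that sum, so it does not describe the list as a whole. Of the 25, 3 were higher by 2-fold or more (Tnnt2, Tnnc1 and Myh6) and 0 were lower, beside 1.59% and 3.85% of all genes. At 1.5-fold, 5 (20.0%) were higher and 3 (12.0%) were lower (Myh8, Myod1 and Myh3). The shares of all genes were 5.48% and 9.69%. Of the 25, 17 lay below the array median on both arrays, Ckm (23.7 and 24.7), Mb (29.4 and 26.4) and Myog (25.9 and 29.5) included. The 11 markers of brown adipocytes had summed signals of 1273 and 1072. Their median log2 ratio was -0.02, with 4 above 0 and 7 below. Fabp4 (235 and 52.2) and Ucp1 (60.0 and 36.6) were lower, while Zic1, the brightest of the list, read 540 and 583. None of these markers had a signal of 0, and their part in the signal of Cox7a1 was not tested.

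Complex V was the most even of the complexes. Its 17 genes had log2 ratios from -0.26 to 0.20, and 16 of them were within 0.25 of 0. In the catalytic F1 head, Atp5a1 (alpha) had signals of 2059 and 2264, Atp5b (beta, which carries the catalytic sites) 2469 and 2756, and Atp5d (delta) 2222 and 2549. These were 1.10-fold, 1.12-fold and 1.15-fold higher. Atp5c1, the gamma subunit that turns inside the head, had 2881 and 2972. Atp5e, the epsilon subunit, was the lowest of the complex, with 1363 and 1140.46, 1.19-fold lower. The c subunit of the rotor ring is encoded by several genes that yield the same mature protein. They read 1347 and 1250.02 for Atp5g1, 1185 and 1137 for Atp5g2, and 4646 and 4515 for Atp5g3, all within 1.08-fold. The peripheral stalk genes Atp5pb, Atp5h, Atp5j and Atp5o had log2 ratios between -0.05 and 0.04. The membrane subunits Atp5j2, Atp5k, Atp5l, Atp5md and Atp5mpl lay between -0.12 and 0.05, with Atp5mpl (2119 and 1950.25) at the lower end.

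Some subunits could not be read from a probe set of their own, and Cox7b was not analysed here. Probe sets shared by copies of a family were left out of the counts: the pair for Ndufb4, Ndufb4b and Ndufb4c read 1287 and 1304, and 1145 and 1129. That for Ndufs6 and Ndufs6b had 1071 and 1078, and that for Ndufs5 and its pseudogene 1159 and 1167. The brighter one for Ndufa11 and Ndufa11b had 839 and 1152, a log2 ratio of 0.46. The value of Ndufb4 given by its own probe set (15.0 and 10.1) is therefore a poor guide to the gene, whose shared probe sets differed by less than 1.02-fold.

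Probe sets of the same gene are the only repeat that each array holds, and they share its RNA. In 48 members at least 2 probe sets reached the array median. The log2 ratios of the brightest pair had the same sign in 42 of the 48, and the SD of a probe set worked out from their differences was 0.11, against 0.28 over 5112 genes of the whole array and 0.18 over the 2179 genes with both probe sets bright (at or above the 75th percentile of the control array). The largest gap was in Ndufb8, with -0.03 at 1308 and 1281, and 0.83 at a probe set that read 51.6 and 91.7. Ndufab1 had probe sets below the 75th percentile with log2 ratios of 1.16 (26.1 and 58.2) and 1.32 (34.3 and 85.7), while its bright ones gave 0.23 and 0.26. These were the only probe sets of the 180 past 2-fold.

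**Figure D3:**
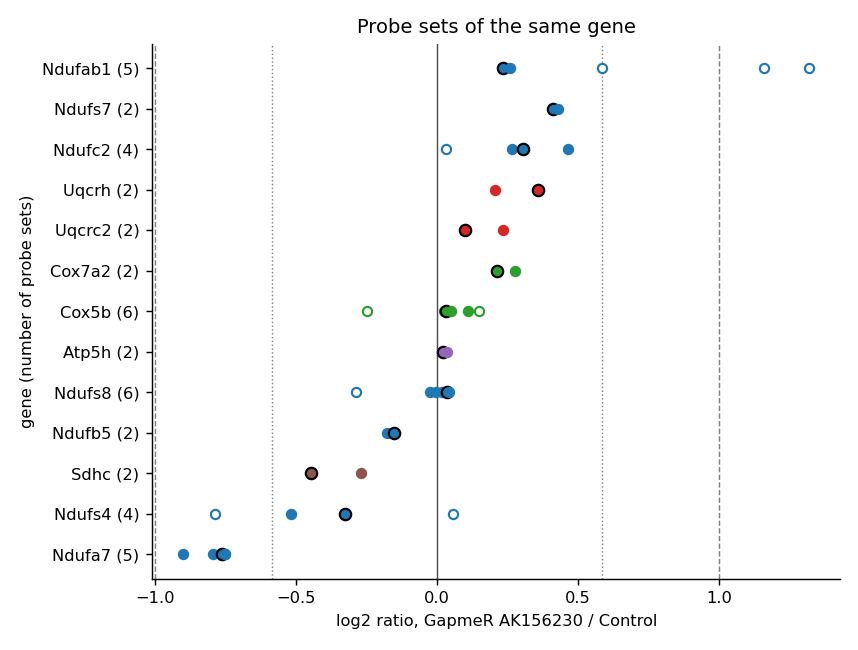
Log2 ratio, AK156230 array over control array, by probe set for 13 genes with several probe sets, the representative outlined in black, filled where a probe set reached the 75th percentile of signals and open where it did not. The 5 probe sets of Ndufa7 lie between -0.90 and -0.75, and the probe sets of Ndufab1 past 2-fold (dashed line) are open points; dotted lines mark 1.5-fold.

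Promoters of oxidative phosphorylation genes are known for binding sites of NRF1, of ETS factors such as GABPA (also called NRF2 in this field), and of YY1. Promoter sequences of RefSeq on GRCm38.p6, from 250 bases before to 50 after the start site, were at hand for 74 of the 91 members, with 79 promoters. They are shown for a pair of complex III genes with ratios above 0 and an ETS match (Uqcr11 and Uqcrh), for Atp5k, which has NRF1 matches and a log2 ratio of 0.01, and for the lowest members, Ndufa7 and Ndufv3. Each runs from 120 bases before the start site to 10 after it, and capitals mark matches to the NRF1 letters GCATGCGC, the ETS letters CCGGAAGT or the YY1 letters AAGATGGC on either strand.
Uqcr11 (chr10:80406812-80406941, minus strand): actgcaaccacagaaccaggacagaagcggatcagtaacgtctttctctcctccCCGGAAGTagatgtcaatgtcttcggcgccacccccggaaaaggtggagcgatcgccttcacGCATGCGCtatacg
Uqcrh (chr4:116075061-116075190, minus strand): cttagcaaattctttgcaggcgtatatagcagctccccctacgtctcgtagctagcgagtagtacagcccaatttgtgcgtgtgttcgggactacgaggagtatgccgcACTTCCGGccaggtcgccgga
Atp5k (chr5:108434390-108434519, minus strand): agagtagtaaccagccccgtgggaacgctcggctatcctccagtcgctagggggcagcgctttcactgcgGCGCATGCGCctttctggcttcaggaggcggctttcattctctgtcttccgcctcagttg
Ndufa7 (chr17:33824452-33824581, plus strand): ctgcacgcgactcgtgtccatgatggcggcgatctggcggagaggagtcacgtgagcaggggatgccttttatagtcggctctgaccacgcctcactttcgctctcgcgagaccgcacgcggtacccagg
Ndufv3 (chr17:31519995-31520124, plus strand): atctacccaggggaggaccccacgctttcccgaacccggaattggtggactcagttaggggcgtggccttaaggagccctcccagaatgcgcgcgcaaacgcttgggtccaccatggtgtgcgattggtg

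Uqcr11 has an ETS match and an NRF1 match that spans the start site, Uqcrh an ETS match, and Atp5k a pair of NRF1 matches that overlap on opposite strands. The windows of Ndufa7 and Ndufv3 hold none of these letters, but lacking a motif was the common case. Of the 74 matched members, 63 lacked the NRF1 letters in the whole promoter, 64 the YY1 letters and 69 the ETS letters. Over the whole promoters, the NRF1 letters were in 11 of 79 (13.9%), compared with 2.71% of the 32851 promoters of all genes. The YY1 letters were in 10 of 79 (12.7%), compared with 2.75%, and the ETS letters in 5 of 79 (6.33%), compared with 3.89%. The 11 members with the NRF1 letters had log2 ratios from -0.06 to 0.30, with a median of 0.10, against 0.05 in the 63 matched members without them. The 10 members with the YY1 letters had a median of -0.03, against 0.09 in those without them, and Ndufs7 (0.41) and Ndufs4 (-0.33), near opposite ends of complex I, were both among them. The 5 members with the ETS letters (Uqcrh, Uqcr11, Ndufs3, Cox8a and Atp5h) lay between 0.02 and 0.36, with a median of 0.20 against 0.05 without the letters. These differences were not tested. A match of letters is a description of the sequence and not a measured site.

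Regulators of mitochondrial biogenesis were also within 2-fold. Of 21 measured genes none differed by 2-fold, beside 1.59% higher and 3.85% lower over all genes. The median log2 ratio was 0.01, with 11 above 0 and 10 below. Nrf1, the transcription factor named above, had signals of 138 and 114, Gabpa 419 and 400.41, and Esrra, an orphan nuclear receptor that works with PGC-1 coactivators, 466 and 402. The coactivators themselves, Ppargc1a (49.8 and 53.0) and Ppargc1b (67.4 and 59.5), were near the array median. Tfam, which packages mitochondrial DNA and starts its transcription, had 293 and 298. The genes of the mitochondrial DNA polymerase stood higher, with 141 and 209 for the catalytic subunit Polg and 84.2 and 131 for the accessory subunit Polg2, 1.48-fold and 1.55-fold. Other genes of the list rose by similar ratios, namely Mterf4 (98.5 and 153, 1.55-fold), Mterf1a (82.8 and 122, 1.48-fold) and Polrmt (156 and 215, 1.38-fold). Mitochondrial DNA itself was represented by ND5, a core subunit of complex I, with signals of 3876 and 3385, a log2 ratio of -0.20.

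Lists of more than 1 gene spread more widely than the members, except for the cytosolic ribosomal proteins. The 76 mitochondrial ribosomal proteins had a median log2 ratio of 0.08 and an interquartile range of 0.33, with none past 2-fold. The 47 cytosolic ribosomal proteins, which serve here as a list of bright short genes outside mitochondria, had a median of 0.03 and a range between quartiles of 0.092. A list of Cycs and of assembly factors outside the Nduf symbols held 45 measured genes. Of these, 2 were at least 2-fold lower and 0 were at least 2-fold higher. Over all genes 3.85% were lower and 1.59% higher at 2-fold. Among genes that reached the 75th percentile the shares were 5.64% and 1.98%. A count of 2 does not set the list apart from these shares. The 2 lower genes were Nubpl and Cox20. Nubpl, which delivers iron-sulfur clusters to complex I, was 2.54-fold lower (215 and 84.6). Cox20, which helps to mature the COX2 subunit of complex IV, was 2.11-fold lower (767 and 364). Nubpl spans 213 kb and Cox20 4.60 kb. Of genes that reached the 75th percentile, 278 of the 2526 spanning 40 kb or more were lower by 2-fold, and 151 of the 5091 shorter ones. Of 18 enzymes of the citric acid cycle and the pyruvate entry to it, Suclg2, the GTP-forming subunit of succinyl-CoA synthetase, was 9.04-fold lower (343 and 37.9) and spans 246 kb. Its partner Suclg1 read 856 on both arrays. Citrate synthase, Cs, had 1310.44 and 1325.

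**Figure D4:**
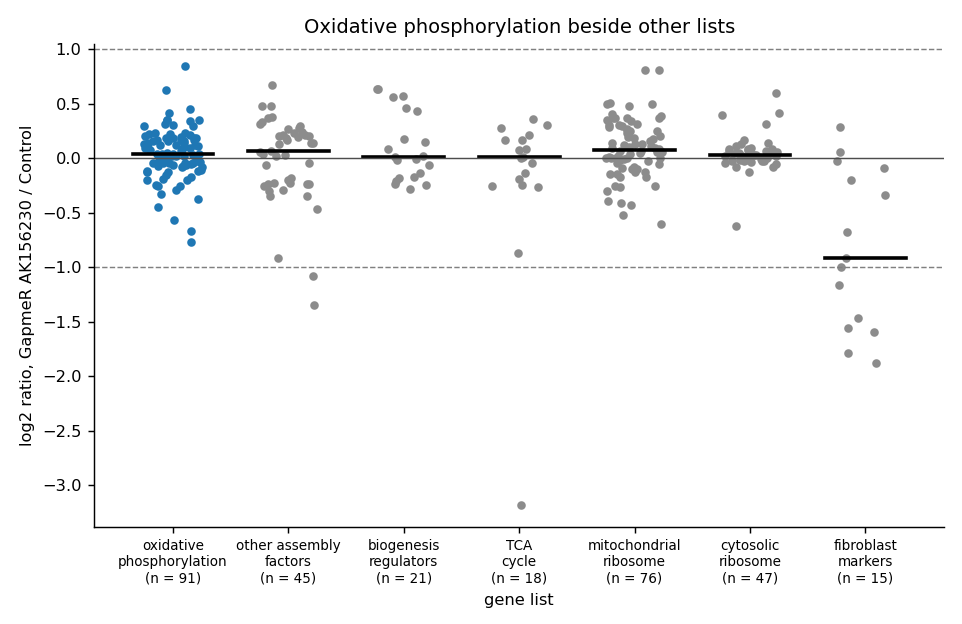
Log2 ratio, AK156230 array over control array, of each gene of the oxidative phosphorylation set (blue) and of other lists (grey), with a black bar at each median and dashed lines at 2-fold. The member points lie between -0.76 and 0.85, while the fibroblast markers have a median of -0.91 and Suclg2 of the TCA cycle lies lowest at -3.18.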

How the data were processed

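RNA of MEFs transfected with GapmeR Control or GapmeR AK156230 was hybridized to 1 Affymetrix array per condition. The deposited intensity values are MAS5 signals on a linear scale, made by the authors. The version of MAS5 and its target for scaling were not stated, and no detection calls were in the table used. The methods name a porcine array, while the labels and the platform annotation are mouse. Of the probe sets, 34945 had 1 gene symbol, 932 several and 9160 none. Both signals were equal (within 0.006) in the 171 rows shared with the study's supplementary gene table; its ratios and its detection and change calls, held only for these rows, were not used. For these arrays the methods name an unpaired comparison in SAM, which needs replicates and was not run. Log2 ratios were taken as deposited, without an offset. With 1 array per condition no test was possible, and the number of arrays limits the precision. Members and lists were chosen with earlier results of these data known. Genes named are members past 1.5-fold, the 2 highest and 2 lowest of each complex, catalytic subunits, isoforms, and up to 4 genes a list past 2-fold. Polg, Polg2, Polrmt, Mterf1a, Mterf4 and Zic1 were chosen after their values were seen. Acta1, Des, Myh8, Myod1, Myh3, Postn, Vim, S100a4, Dcn, Twist1, Ndufb8 and Ndufab1 were chosen in the same way. So were the neighbours of Ndufa7 and Ndufv3, and other members used as examples. Lengths, positions and promoters are those of RefSeq on GRCm38.p6. The alternatives were other scalings, an offset, signal minimums and probe set rules. Ratios and counts were checked on simulated data. Analyses used Python 3.11.15, numpy 2.4.6, pandas 2.3.3, statsmodels 0.14.6 and matplotlib 3.10.9.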

Additional observations from a re-analysis of the deposited data

How the results depend on the processing

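No member passed 2-fold under the other scalings, the offset, the signal minimums or the other probe set rules. Counting all 180 probe sets, chosen after seeing the data, gave 2 higher (both Ndufab1), with 8 higher and 7 lower at 1.5-fold. The 7 were the 5 probe sets of Ndufa7, that of Ndufv3, and a probe set of Ndufs4 (55.5 and 32.1). Over all genes, at 1 probe set a gene, 1.59% were higher at 2-fold. At 1.5-fold 5.48% were higher and 9.69% lower. The members higher at 1.5-fold numbered 0 with the offset, 1 at either signal minimum, and 4 with the mean of all probe sets or without _x_at and _s_at probe sets. With both arrays scaled to the same median 1 member was lower at 1.5-fold (Ndufa7), and medians were 0.15 for all members, 0.15 for complex I, 0.17 for its assembly factors, 0.13 for complex II, 0.33 for complex III, 0.18 for complex IV, 0.12 for complex V and 0.0315 for all genes, which turns the sign of the last. All genes were at 0.0006 with quantile normalization. The assembly factors were at -0.0039 at the 75th percentile minimum. The log2 ratio of Ndufa7 ranged from -0.79 to -0.66 and that of Ndufv3 from -0.67 to -0.56. Of 709 values of single members under the alternatives, 6 moved by over 0.28, and no member past 1.5-fold changed sign. Many of the 709 could not move that far. The signal minimums (87 and 81 values) leave each ratio as it is, and equal medians (91 values) add a constant 0.105. The moves were 2 each with the offset, with the mean of all probe sets and without _x_at and _s_at probe sets. Among genes under 40 kb 2.01% were lower by 2-fold. Beyond the construction of each setting, the cause was not tested. No paired analysis was possible because each condition had 1 array. Signals below the array median may be background, which limits Ndufb4, Cox7a1, Cox7b2 and Cox8b.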
